A study of Mus musculus with 8 samples.

Results

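A set of 38 genes of the hypoxia response and of glycolysis was followed over the 8 arrays of a study of peritoneal macrophages. The mice were labelled as knockouts of the transcription factor Fra-1 or Fra-2, or as their controls. The 38 genes were those of a given list, found through the accession of each noncontrol probe. The probe of the highest mean signal over the 8 arrays stood for its gene. All 38 had a probe (63 probes in all), of 21154 genes named on the array. Of these, 37 were well above background on both arrays of some group and were tested among 22910 features, while Mxi1 was not. By role, 5 genes sense oxygen or regulate the response, 5 bring in and phosphorylate glucose, 9 belong to upper glycolysis, 6 to lower glycolysis, 3 handle pyruvate and lactate, and 10 are other targets of hypoxia.

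Both factors, encoded by Fosl1 and Fosl2, belong to the AP-1 family and bind DNA together with Jun proteins. The Fra-1 line gave 2 arrays of wild-type Fra-1lox/lox mice and 2 of Fra-1lox/lox MxCre-/+ mice, and all 4 were labelled as elicited with thioglycollate, an irritant that draws inflammatory macrophages into the peritoneum. The Fra-2 line gave 2 arrays of wild-type Fra-2lox/lox mice and 2 of Fra-2lox/lox LysMCre-/+ mice, with no such label. Mx Cre is switched on by interferon and is not limited to macrophages, and LysM Cre is active in myeloid cells. All mice were 8 weeks old, male or female, on a 129/C57Bl6 background, with littermates as controls; the cells were washed from the peritoneum and kept in culture until the next day, and RNA came from those that adhered. The design text counts as many mice as there are arrays, and nothing else says how the samples of a group are related, so p-values measure the spread between these samples.

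When oxygen is plentiful, prolyl hydroxylases such as those encoded by Egln1 and Egln3 mark the alpha subunits of hypoxia-inducible factors (HIF) for destruction. When oxygen is short, HIF-1 alpha (gene Hif1a) escapes, pairs with ARNT and binds the core sequences ACGTG and GCGTG near genes for glucose uptake, glycolysis, lactate export and blood vessel growth. Macrophages also use HIF-1 alpha and glycolysis during activation by inflammatory signals. The enzymes of glycolysis split glucose into pyruvate, and lactate dehydrogenase turns pyruvate into lactate. Pyruvate dehydrogenase kinases inhibit pyruvate dehydrogenase, the enzyme that leads pyruvate into mitochondrial oxidation.

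The core ACGTG was searched in RefSeq promoter windows of assembly GRCm38.p6, 250 bases before to 50 bases after each annotated start, on both strands, so that the palindrome CACGTG counts as a match on each strand. Windows were given for 35 of the 38 genes. At least 1 match lay in a window of 25 of the 35 (71.4%), against 21.8% of 27025 genes with a window and 27.7% of 11472 tested genes with a window. GCGTG, searched the same way, was in windows of 22 of the 35 (62.9%), against 35.2% and 51.9%. A match is a description of the letters and not a binding site, and many of these genes are on the list because they are known HIF targets. The 250 bases before the start are shown for Ankrd37, Egln3 and Car9, the genes whose arrays were set apart in opposite directions in the knockouts of the lines, for Ldha, whose window held the most matches, and for Eno2, whose level differed most between the lines and whose window held none. Capitals mark ACGTG or its reverse complement CACGT.
Ankrd37, chr8:45999851-46000100, minus strand: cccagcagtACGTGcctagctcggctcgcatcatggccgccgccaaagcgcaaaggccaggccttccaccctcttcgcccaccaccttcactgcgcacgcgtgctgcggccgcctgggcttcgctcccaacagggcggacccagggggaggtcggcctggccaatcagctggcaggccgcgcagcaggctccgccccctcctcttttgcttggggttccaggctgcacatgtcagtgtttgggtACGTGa
Egln3, chr12:54203875-54204124, minus strand: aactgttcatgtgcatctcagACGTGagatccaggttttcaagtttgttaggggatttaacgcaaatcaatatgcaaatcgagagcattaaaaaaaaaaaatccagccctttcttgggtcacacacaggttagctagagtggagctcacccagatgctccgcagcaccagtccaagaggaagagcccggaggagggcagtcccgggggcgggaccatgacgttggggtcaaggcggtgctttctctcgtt
Car9, chr4:43506776-43507025, plus strand: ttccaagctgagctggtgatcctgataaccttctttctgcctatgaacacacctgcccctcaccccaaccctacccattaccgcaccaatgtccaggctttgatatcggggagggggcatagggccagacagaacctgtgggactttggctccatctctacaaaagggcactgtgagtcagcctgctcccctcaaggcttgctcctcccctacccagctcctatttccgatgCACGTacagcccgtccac
Ldha, chr7:46845554-46845803, plus strand: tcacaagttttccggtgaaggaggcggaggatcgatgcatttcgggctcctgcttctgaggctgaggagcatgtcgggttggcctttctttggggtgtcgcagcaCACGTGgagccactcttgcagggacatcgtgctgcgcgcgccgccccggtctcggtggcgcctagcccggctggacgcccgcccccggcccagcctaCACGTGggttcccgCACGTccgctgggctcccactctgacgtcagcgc
Eno2, chr6:124769674-124769923, minus strand: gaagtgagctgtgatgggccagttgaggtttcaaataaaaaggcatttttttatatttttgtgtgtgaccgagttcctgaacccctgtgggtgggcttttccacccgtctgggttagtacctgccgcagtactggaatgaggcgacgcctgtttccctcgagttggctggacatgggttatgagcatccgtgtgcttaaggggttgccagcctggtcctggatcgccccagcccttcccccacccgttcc

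Ankrd37 held 2 matches, 241 and 6 bases before the start, Egln3 held 1 at 229 bases and Car9 held 1 at 18 bases. The window of Ldha held 5 matches, which are 2 palindromes and 1 further site. Pfkm held 4 over its windows, Hif1a and Pfkfb3 3 each, and Adm, Eno1, Gpi1, Kdm3a, Pdk1, Pfkfb4, Pfkl, Pfkp and Tpi1 had none, as had Eno2.

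Levels are log2 ratios of a probe's processed signal to the 75th percentile of noncontrol probes on its array, so that 0 is the level of that percentile. Between 47.7% (Fra-2 knockout 1) and 57.6% of spots per array were well above background, and the 75th percentile ran from 315.4 on that same array to 470.2. The number of arrays, 2 per group, limits the precision. All 9 macrophage markers on the fixed list were well above background on all arrays, with a summed signal of 931 to 1520 times the 75th percentile. Their levels differed between the lines, as given below. Fosl1 read −2.73 and −1.97 in the Fra-1 controls and −4.78 and −4.18, below background, in the Fra-1 knockouts (at least 3.91-fold lower; −2.13, SE 0.53, limma adjusted p = 0.364). Fosl2 by its brighter probe read 5.51 and 5.57 in the Fra-2 controls and 6.43 and 7.14 on the arrays labelled Fra-2 knockout (adjusted p = 0.207), and where this probe lies relative to the deleted part is not known here, so it does not check the label. Arrays are named by their labels throughout.

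**Figure D1:**
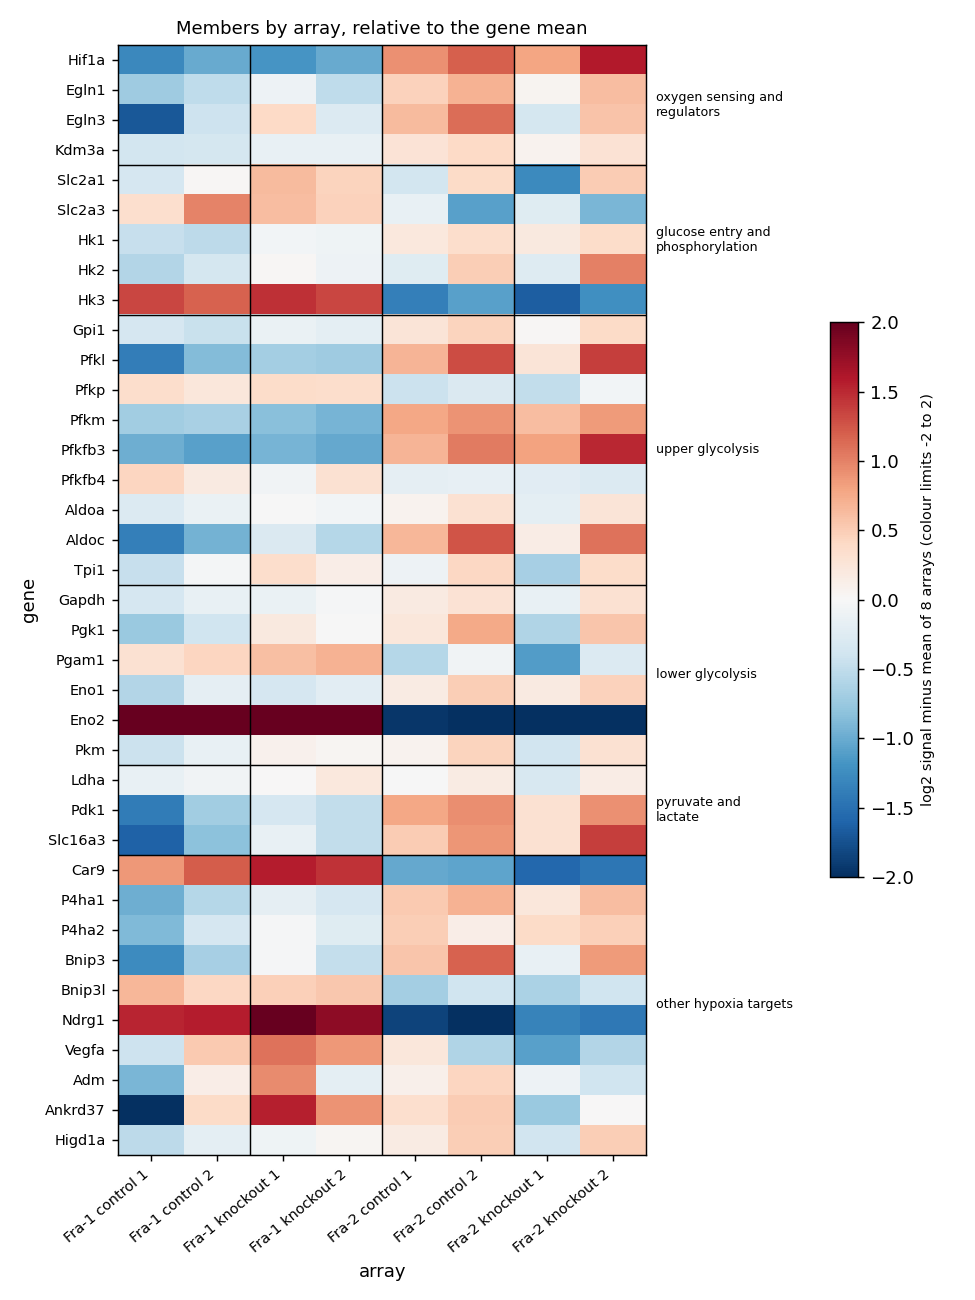
Each tested gene (rows, grouped by role) on each of the 8 arrays (columns), coloured by its log2 signal minus the gene's mean over the 8 arrays, with colours capped at −2 and 2. Fra-1 control 1 (leftmost column) is the lowest of the Fra-1 line for 29 of 37 rows, and Eno2, Ndrg1, Hk3 and Car9 are high on all 4 arrays of the Fra-1 line and low on all 4 of the Fra-2 line.

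In macrophages of Fra-1 knockouts, most genes of the set read higher than in their littermates, but none passed the test. The median log2 difference, knockout minus control, was 0.35 over the 37 genes (0.03 over all features), and 33 of 37 were positive, against 55.2% of all features. The limma test called 0 of 37 at an adjusted p under 0.05 (0.0131% of all features were called); at an unadjusted p under 0.05, 4 were higher (Hk1, Car9, P4ha1 and Ankrd37) and 0 lower, with 3.4% of all features higher and 5.43% lower. Both knockout arrays lay above both control arrays for 26 genes (70.3%, against 27.6% of all features) and below both for 1, Pfkm (18.7% of all features). In cells measured in bulk, fewer cells of a type and less RNA per cell cannot be told apart.

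The widest difference was that of Ankrd37, an ankyrin repeat protein gene known as a target of HIF-1. It read −0.78 and 2.54 in the Fra-1 controls and 3.73 and 3.07 in the Fra-1 knockouts. Control 1 stood 3.33 below control 2, a gap wider than that between control 2 and either knockout. The difference was 2.52 (SE 1.01, 5.72-fold, adjusted p = 0.561), and 0.85 without control 1.

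Among the oxygen sensors, Egln3 read −0.46 and 0.82 in controls and 1.63 and 0.97 in knockouts (1.12, SE 0.52, adjusted p = 0.615). The same low reading of control 1 appears here, and without it the difference was 0.48. Egln1, the main prolyl hydroxylase of most cells, read −1.36, −1.15, −0.75 and −1.15, so its groups met. Hif1a itself read 1.89 and 2.18 in controls and 2.00 and 2.17 in knockouts (0.05, SE 0.28). Kdm3a, a histone demethylase gene induced by HIF, read 2.90 and 2.92 against 3.12 and 3.12, a small step of 0.21 (SE 0.13, adjusted p = 0.679). Mxi1, a Myc antagonist, was below background on all arrays of the study but Fra-2 knockout 2, where it read −3.95.

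Of the genes for glucose entry, Slc2a1, which encodes the transporter GLUT1, read 4.36 and 4.72 in controls and 5.34 and 5.14 in knockouts (0.70, SE 0.58). Hk1, a hexokinase that traps glucose in the cell, had tight arrays, 4.28 and 4.21 against 4.68 and 4.64. Its difference of 0.42 (SE 0.12, 1.34-fold) had an adjusted p of 0.425 and was about the same without control 1 (0.45). Hk2, the inducible hexokinase, differed by 0.43 and Hk3, a hexokinase typical of myeloid cells, by 0.14. Slc2a3, the transporter GLUT3, was the exception at −0.13, with groups that overlapped.

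In upper glycolysis, the difference was positive for 7 of 9 genes (55.2% of all features) with a median of 0.18. The arrays did not overlap for 6 higher (27.6% of all features) and 1 lower (18.7%). Aldoc, an aldolase, read 2.39 and 2.81 in controls and 3.46 and 3.18 in knockouts (0.72, SE 0.37). Triosephosphate isomerase (Tpi1) differed by 0.49, the liver-type phosphofructokinase Pfkl by 0.43, Gpi1 by 0.23, Aldoa by 0.18 and Pfkp by 0.07. Pfkm, the muscle-type phosphofructokinase, went the other way, from 0.38 and 0.43 to 0.24 and 0.15 (−0.21, SE 0.13, adjusted p = 0.679). The bifunctional enzyme genes Pfkfb3 and Pfkfb4, which set the level of a phosphofructokinase activator, differed by 0.05 and −0.18.

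All 6 genes of lower glycolysis had a positive difference (55.2% of all features), from 0.10 (Eno2) to 0.66 (Pgk1). For 4 the arrays did not overlap, all higher in the knockout (27.6% of all features). Pgk1, phosphoglycerate kinase, read 6.21 and 6.56 against 7.15 and 6.94 (SE 0.40, adjusted p = 0.677). Pkm, pyruvate kinase, differed by 0.35, Pgam1 by 0.28, Gapdh by 0.17 and Eno1 by 0.11, the last with overlapping arrays. Several of these enzymes have near-identical processed copies in the mouse genome, and cross-hybridisation of their probes was not tested.

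Past pyruvate, Slc16a3, which encodes the lactate exporter MCT4, read 3.75 and 4.55 in controls and 5.22 and 4.88 in knockouts (0.90, SE 0.43, adjusted p = 0.620). Pdk1, a pyruvate dehydrogenase kinase, read 0.16 and 0.88 against 1.24 and 1.07 (0.63, SE 0.30). Ldha, lactate dehydrogenase A, read 8.54 and 8.62 against 8.70 and 8.90 (0.22, SE 0.19). On each of these probes both knockouts read above both controls, and control 1 was the lowest array.

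Of the 10 other hypoxia targets, 9 had a positive difference (55.2% of all features), and the median was 0.50. For 8 the arrays did not overlap, all higher in the knockout (27.6% of all features). Car9, a carbonic anhydrase at the cell surface, read 0.91 and 1.25 against 1.62 and 1.49 (0.47, SE 0.15, adjusted p = 0.467; 0.30 without control 1). P4ha1, a collagen prolyl hydroxylase subunit, read 0.31 and 0.71 against 1.11 and 0.95 (0.52, SE 0.21, adjusted p = 0.556; 0.32 without control 1). Vegfa, the growth factor of blood vessels, read 2.24 and 3.17 against 3.73 and 3.51 (0.92, SE 0.41; 0.45 without control 1). For Car9, P4ha1 and Vegfa the knockout arrays were closer to each other than the controls were.

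Bnip3, a mitophagy receptor, read 3.20 and 3.79 against 4.44 and 3.98 (0.72, SE 0.42). Its relative Bnip3l read 6.34 and 6.10 against 6.17 and 6.23, with no separation (−0.02, SE 0.17). P4ha2 differed by 0.48, Ndrg1, a stress-response gene, by 0.43, and Higd1a, a mitochondrial protein gene, by 0.34. Adm, the vasodilator adrenomedullin, read −2.74 and −1.69 in controls and −0.89 and −2.02 in knockouts, so the groups overlapped (0.76, SE 0.47), and the value was 0.19 without knockout 1.

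**Figure D2:**
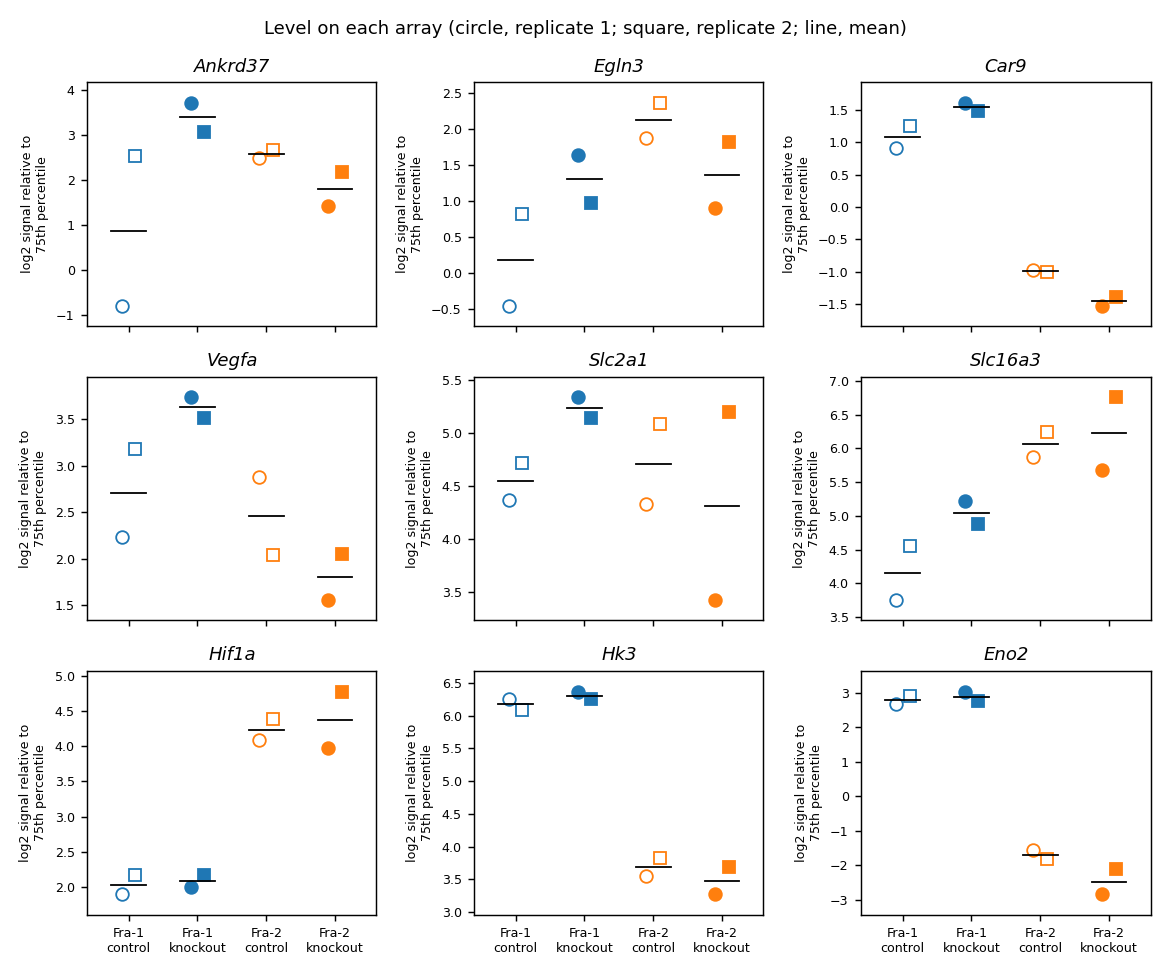
Log2 signal relative to the array's 75th percentile for 9 genes, by group, with circles for replicate 1, squares for replicate 2, open symbols for controls, filled symbols for knockouts and a line at the group mean of 2 arrays. The circle of Fra-1 control 1 lies far below its partner for Ankrd37, while for Hif1a, Hk3 and Eno2 the lines stand further apart than the knockouts do from their controls.

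The size of the Fra-1 differences depended on control 1, while the sign of their median did not. Of the 4 arrays of the line, control 1 was the lowest for 29 of 37 genes (31.0% of all features) and knockout 1 the highest for 27 (18.8%). The knockout mean minus control 1 had a median of 0.46 with 33 genes positive, and the knockout mean minus control 2 a median of 0.21 with 31 positive. The median was 0.44 within slide 1, which held both controls and knockout 1, and 0.16 with the slide as a block. The slide was read from a number in the name under which each array was deposited, not from the sample labels. Fibroblast markers moved with the groups: their summed signal was 109 to 157 times the 75th percentile in controls and 40.6 to 63.3 in knockouts, 5 or 6 of 7 above background on each array, and mesothelial markers, 7 of 7 above background, summed to 10.3 to 15.1 against 4.83 to 7.26. Both marker sums were lower on control 1 than on control 2. Mast cell markers summed to 2.18 to 2.62 in controls and 1.28 to 1.51 in knockouts, 5 or 6 of 6 above background. B cell markers, 3 or 4 of 6 above background, summed to 1.42 and 3.33 in controls and 5.34 and 2.22 in knockouts. T cell markers, 5 of 5 above background, summed to 1.91 and 2.26 against 2.32 and 1.99. Both sums were lowest on control 1 and highest on knockout 1. Macrophage markers ran the other way, with 1220 and 966 against 931 and 1010. The part of these cells in the differences was not tested.

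In macrophages of Fra-2 knockouts, none of the genes passed the test, and most read slightly lower. The median log2 difference was −0.18 (−0.03 over all features), with 10 genes positive and 27 negative, against 54.8% of all features negative. Limma called 0 of 37 (0.00873% of all features); at an unadjusted p under 0.05, 1 was higher (Ndrg1) and 2 lower (Car9 and Eno2), with 3.01% and 5.81% of all features. Arrays did not overlap for 1 gene higher in the knockout (15.0% of all features) and 6 lower (20.1%), a share below the background for the first and near it for the second. Knockout 1 minus the control mean had a median of −0.39 with 34 negative, whereas knockout 2 minus the control mean had 0.07 with 27 positive. Leaving out control 2 took the median to −0.07 and leaving out control 1 to −0.27. Each slide held 1 control and 1 knockout of this line. Set against the control of its own slide, the knockout read lower for 33 genes on slide 1 (56.5% of all features; median −0.30) and for 24 on slide 2 (50.8%; median −0.04). It was lower on both slides for 22 genes (59.5%, against 32.7% of all features) and higher on both for 2 (25.4%).

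Ndrg1 was the gene that read higher, at −0.24 and −0.81 in Fra-2 controls and 0.29 and 0.20 in knockouts (0.77, SE 0.23, 1.70-fold, adjusted p = 0.397). It was higher within both slides, by 0.52 and 1.01. Car9 read −0.97 and −1.01 in controls and −1.53 and −1.40 in knockouts (−0.47, SE 0.15, adjusted p = 0.453), with −0.56 and −0.39 within the slides. Eno2, the neuronal form of enolase, read −1.56 and −1.82 against −2.84 and −2.09 (−0.77, SE 0.27, adjusted p = 0.499), and its gap was −1.28 within slide 1 but −0.27 within slide 2.

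The other genes with separate arrays were Egln3, Ankrd37, Adm and Pfkfb4. Egln3 read 1.87 and 2.36 in controls and 0.89 and 1.81 in knockouts (−0.76, SE 0.52, adjusted p = 0.785). Ankrd37 read 2.49 and 2.67 against 1.43 and 2.18 (−0.78, SE 1.01). For both, knockout 1 was the lower of the knockouts and carried the larger part of the gap. Adm read −1.72 and −1.40 against −1.93 and −2.22 (−0.52, SE 0.47), and Pfkfb4 3.92 and 3.94 against 3.87 and 3.83 (−0.08, SE 0.17).

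Among the remaining oxygen and glucose genes the groups overlapped. Hif1a read 4.09 and 4.38 in controls and 3.97 and 4.78 in knockouts, and Slc2a1 read 4.33 and 5.08 against 3.42 and 5.20, a spread of 1.78 between the knockout arrays. Slc16a3 read 5.88 and 6.25 against 5.68 and 6.76. In each of these the knockout arrays lay on both sides of the controls. Pgk1 read 7.19 and 7.71 in controls and 6.34 and 7.51 in knockouts, with knockout 1 below both controls and knockout 2 between them.

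For the rest, the values are given by role. Egln1 had −0.24 and Kdm3a −0.15. Of the 5 genes for glucose entry and phosphorylation 3 were positive, Hk2 (0.25), Slc2a3 (0.04) and Hk1 (0.005), while Hk3 had −0.21 and Slc2a1 −0.40. In upper glycolysis the values ran from −0.34 (Aldoc) to 0.29 (Pfkfb3). In lower glycolysis all 6 were negative, from −0.77 (Eno2) to −0.0044 (Eno1), and Ldha and Pdk1 had −0.16 and −0.24. Vegfa had −0.65, but −1.32 within slide 1 and 0.01 within slide 2. Bnip3 had −0.50, P4ha1 −0.19, P4ha2 0.12, Higd1a −0.27 and Bnip3l 0.02. Neutrophil markers, 6 or 7 of 8 above background, summed to 18.7 to 22.7 in controls and 35.3 to 51.8 in knockouts. Of the 8, only S100a9 and Mpo had arrays that did not overlap between these groups. Red cell markers, 1 or 2 of 5 above background, reached 9.50 on knockout 1 against at most 1.02 on any other array. T cell markers, 5 of 5 above background, summed to 8.32 to 8.71 in controls and 6.49 to 7.05 in knockouts, and macrophage markers to 1340 to 1520 and 1250 to 1300. The part of these markers in the differences was not tested.

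**Figure D3:**
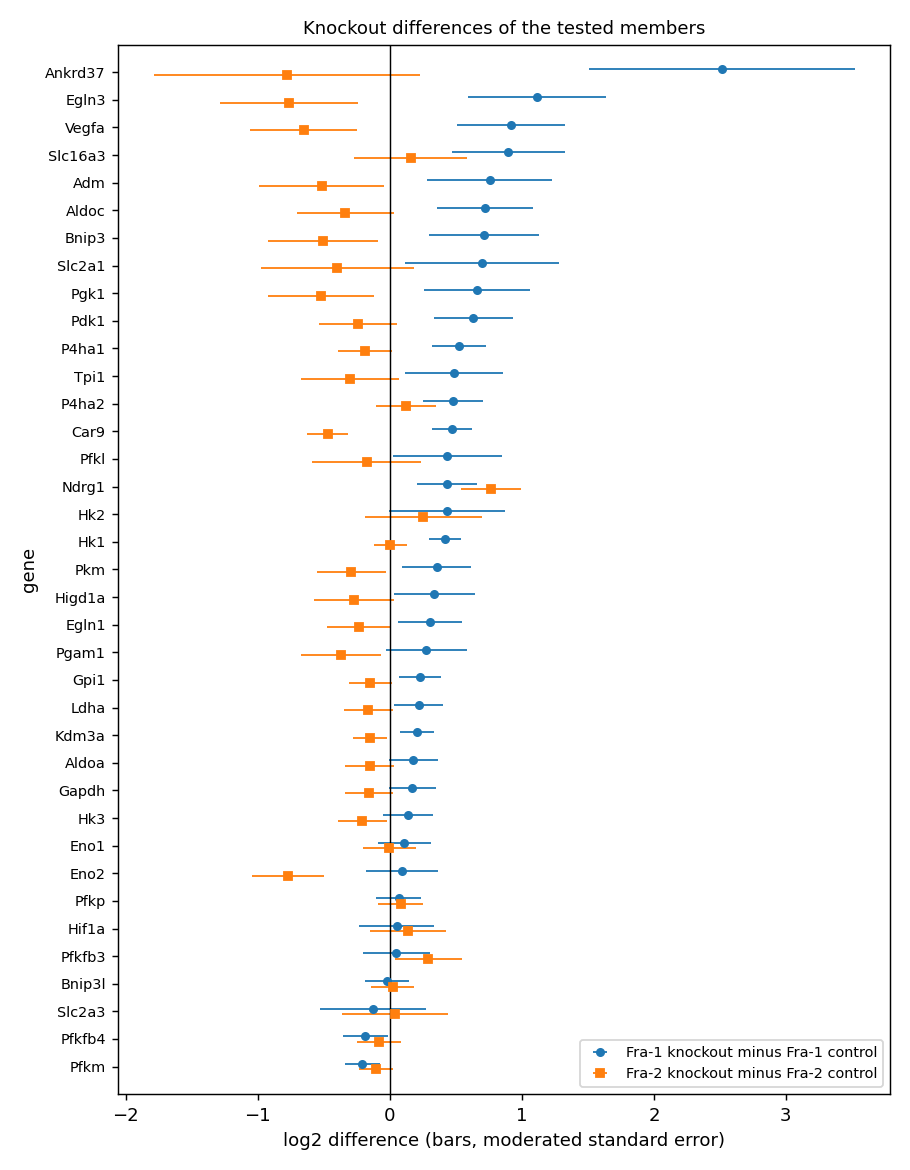
Log2 difference, knockout minus control, of the 37 tested genes in the Fra-1 line (circles) and the Fra-2 line (squares), with bars of 1 moderated standard error, ordered by the Fra-1 value. Ankrd37 has the largest Fra-1 value (2.52) and the widest bars, and 33 circles but 10 squares lie right of 0.

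The difference between the knockout effects, Fra-1 minus Fra-2, was positive for 29 of 37 genes (55.9% of all features) with a median of 0.54, and limma called none (0.00436% of all features were called). At an unadjusted p under 0.05 it was higher for 3, Car9 (0.94, SE 0.22, adjusted p = 0.297), Vegfa (1.57, SE 0.58, adjusted p = 0.482) and Egln3 (1.88, SE 0.74, adjusted p = 0.514), with 5.4% of all features. Ankrd37 had the largest value, 3.30 (SE 1.43, adjusted p = 0.542), which was 1.63 without Fra-1 control 1. The median was 0.20 without Fra-2 knockout 1. Across the 37 genes the effects in the lines had a Pearson r of −0.49 (−0.41 without Ankrd37; 0.03 over all features); the effects share no array, and genes are not independent replicates.

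Arrays of the same group also differed in these genes, by medians close in size to those between groups. Replicate 2 minus replicate 1 had a median of 0.28 in Fra-1 controls (30 genes up, 7 down), −0.12 in Fra-1 knockouts (8 up, 29 down), 0.24 in Fra-2 controls (31 up, 6 down) and 0.50 in Fra-2 knockouts (33 up, 4 down). The replicate numbers are names only and carry no order. Medians over all features were −0.03, 0.05, 0.01 and 0.04. In Fra-2 knockouts 7 of the 37 genes differed by more than 1 (4.72% of all features), with Slc2a1 at 1.78 the widest, and in Fra-1 controls 3 did (2.26%), with Ankrd37 at 3.33.

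The genes that differed between the replicates of 1 group were partly those that differed in the other group of the line. Across the 37 genes, the gap in Fra-2 controls and the gap in Fra-2 knockouts had a Pearson r of 0.71 (0.69 without Slc2a1; 0.20 over all features). In that line replicate 1 was on slide 1 and replicate 2 on slide 2 in both groups, so array and slide cannot be told apart there. The gaps in Fra-1 controls and Fra-1 knockouts had −0.61 (−0.65 without Ankrd37; −0.17 over all features), with both controls on slide 1. Pairs across the lines had between −0.04 and 0.14.

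Of the 4 arrays of the Fra-2 line, knockout 1 was the lowest for 29 genes (34.0% of all features) and control 2 the highest for 22 (26.1%). On knockout 1 fewer spots were above background than on any other array; whether this bears on the low readings was not tested. Higd1a shows the usual form: 5.57 and 5.91 in controls, 5.03 and 5.90 in knockouts, so that knockout 1 alone was low. Tpi1 read 6.26 and 6.76 against 5.70 and 6.72, and Pgam1 6.73 and 7.24 against 6.19 and 7.04.

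**Figure D4:**
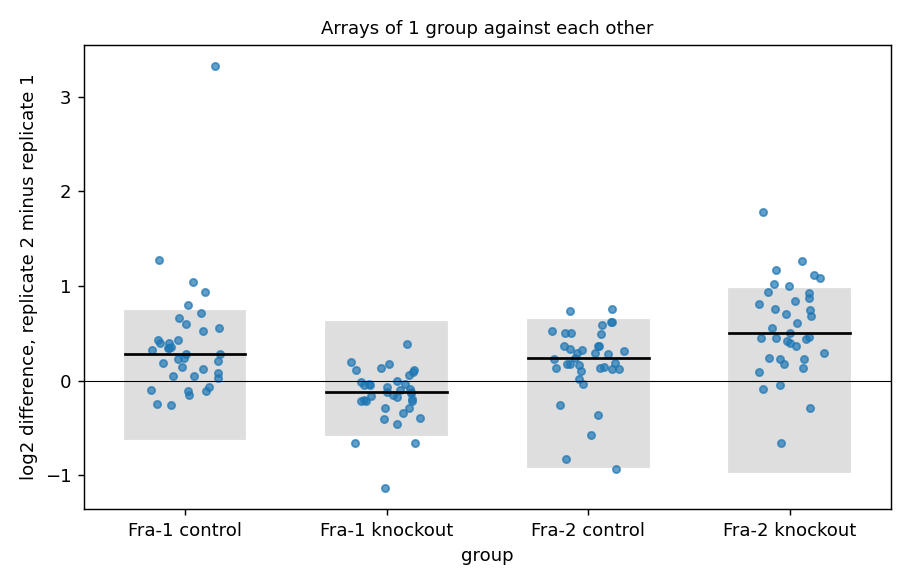
Log2 difference of replicate 2 minus replicate 1 within each group for the 37 tested genes (points), with their median (line) and the range from the 5th to the 95th percentile of all 22910 features (grey box). The medians are 0.28, −0.12, 0.24 and 0.50 from left to right, and Ankrd37 in Fra-1 controls stands at 3.33.

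The largest differences in these genes lay between the control groups of the lines, where line, thioglycollate label and preparation go together and cannot be told apart. Given as Fra-1 control minus Fra-2 control, 22 of 37 genes were called (59.5%, against 36.0% of all features), 6 higher in Fra-1 controls (18.1% of all features) and 16 lower (17.9%). The median was −0.68 (−0.03 over all features), and arrays did not overlap for 9 genes higher (34.5% of all features) and 23 lower (37.3%). Fewer genes were called without Fra-1 control 1 or without Fra-2 control 2. The share of all features called under those settings is not given here. Of the 22, 12 were called under each of the 16 alternatives that test them, and 10 lost the call under at least 1.

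The genes higher in Fra-1 controls came from different steps. Eno2 differed most, with −1.56 and −1.82 in Fra-2 controls and 2.67 and 2.91 in Fra-1 controls (4.48, SE 0.27, 22.3-fold, adjusted p = 2.64e-04). Ndrg1 went from −0.24 and −0.81 to 3.15 and 3.20 (3.69, SE 0.23, 12.9-fold, adjusted p = 2.69e-04). Hk3 went from 3.55 and 3.83 to 6.25 and 6.09 (2.48, SE 0.19, adjusted p = 4.57e-04), and Car9 from −0.97 and −1.01 to 0.91 and 1.25 (2.07, SE 0.15, adjusted p = 4.37e-04). For these 4 genes the arrays of each line lay close together and far from the other line.

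Bnip3l was higher by 1.07 (SE 0.17, adjusted p = 0.00472), with 6.34 and 6.10 in Fra-1 controls and 5.00 and 5.29 in Fra-2 controls. Pfkp, the platelet-type phosphofructokinase, was higher by 0.65 (SE 0.17, adjusted p = 0.0296), a call lost under 8 alternatives, among them the mean of its probes (0.44, adjusted p = 0.184). Slc2a3 (1.28), Pgam1 (0.68) and Pfkfb4 (0.47) had arrays that did not overlap but were not called. Vegfa read 2.24 and 3.17 against 2.87 and 2.05, with no separation.

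All 4 tested members that sense oxygen or regulate the response were called lower in Fra-1 controls (17.9% of all features). On a separate list of 12 oxygen sensing genes, given below, 3 were called higher and 0 lower. Hif1a read 4.09 and 4.38 in Fra-2 controls and 1.89 and 2.18 in Fra-1 controls (−2.20, SE 0.28, 4.59-fold, adjusted p = 0.00257). Egln3 differed by −1.93 (SE 0.52, adjusted p = 0.0327), Egln1 by −1.19 (SE 0.24, adjusted p = 0.0124) and Kdm3a by −0.69 (SE 0.13, adjusted p = 0.00913). The Hif1a call held under every alternative that tested it. That of Egln3 was lost under 6, with −1.30 (adjusted p = 0.127) without Fra-1 control 1, that of Egln1 without that array (−1.08, adjusted p = 0.0653) and without Fra-2 control 2 (−1.07, adjusted p = 0.0637), and that of Kdm3a without Fra-2 control 2 (−0.63, adjusted p = 0.0515).

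In glycolysis, 5 of 9 upper genes were called lower (17.9% of all features). Pfkl went from 3.36 and 3.98 to 1.29 and 1.81 (−2.12, SE 0.41, adjusted p = 0.0108), Pfkm from 1.85 and 1.98 to 0.38 and 0.43 (−1.51, SE 0.13, adjusted p = 6.82e-04), and with Pfkp higher the forms of phosphofructokinase differed in opposite directions. Pfkfb3 went from 5.52 and 5.88 to 3.86 and 3.75 (−1.89, SE 0.25, adjusted p = 0.00290), Aldoc from 4.42 and 5.00 to 2.39 and 2.81 (−2.11, SE 0.37, adjusted p = 0.00718) and Gpi1 from 7.92 and 8.09 to 7.31 and 7.21 (−0.74, SE 0.16, adjusted p = 0.0152). Pfkl lost its call when Fra-1 control 1 was left out (−1.86, adjusted p = 0.0609) or Fra-2 control 2 (−1.81, adjusted p = 0.0555). Gpi1 lost its call with Fra-1 control 2 left out (−0.69, adjusted p = 0.0714), and also without Fra-2 control 2 (−0.66, adjusted p = 0.0770).

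Hexokinases differed as well: Hk1 was lower by 0.77 on the log2 scale in Fra-1 controls (4.28 and 4.21 against 4.95 and 5.09; SE 0.12, adjusted p = 0.00521), Hk3 higher, and Hk2 not called. Of the lower enzymes, Eno1 was called lower (−0.71, SE 0.20, adjusted p = 0.0385), a call lost under 9 alternatives, while Eno2 of the same family was the highest. Gapdh (−0.48), Pgk1 (−1.06) and Pkm (−0.54) had separate arrays but no call, and Ldha differed by −0.19 and Aldoa by −0.40. Gapdh, often used as a reference gene, read 8.46 and 8.64 in Fra-1 controls and 8.98 and 9.08 in Fra-2 controls.

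Slc16a3 went from 5.88 and 6.25 to 3.75 and 4.55 (−1.91, SE 0.43, adjusted p = 0.0173) and Pdk1 from 2.34 and 2.49 to 0.16 and 0.88 (−1.90, SE 0.30, adjusted p = 0.00501). Bnip3 went from 5.01 and 5.63 to 3.20 and 3.79 (−1.83, SE 0.42, adjusted p = 0.0185), P4ha1 from 1.80 and 1.99 to 0.31 and 0.71 (−1.39, SE 0.21, adjusted p = 0.00407) and P4ha2 from 1.03 and 0.66 to −0.36 and 0.20 (−0.92, SE 0.23, adjusted p = 0.0246). Bnip3 and Bnip3l, related mitophagy receptors, thus differed in opposite directions, each past the test. The calls of Slc16a3 and Bnip3 were lost without Fra-1 control 1 (−1.51, adjusted p = 0.0844, and −1.53, adjusted p = 0.0929) and without Fra-2 control 2 (−1.73, adjusted p = 0.0812, and −1.52, adjusted p = 0.0882), and that of P4ha2 under 4 alternatives, with −0.64 (adjusted p = 0.0896) without Fra-1 control 1. Ankrd37 (−1.70), Adm (−0.65) and Higd1a (−0.68) were not called; without Fra-1 control 2, Ankrd37 had −3.36 (adjusted p = 0.00847).

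**Figure D5:**
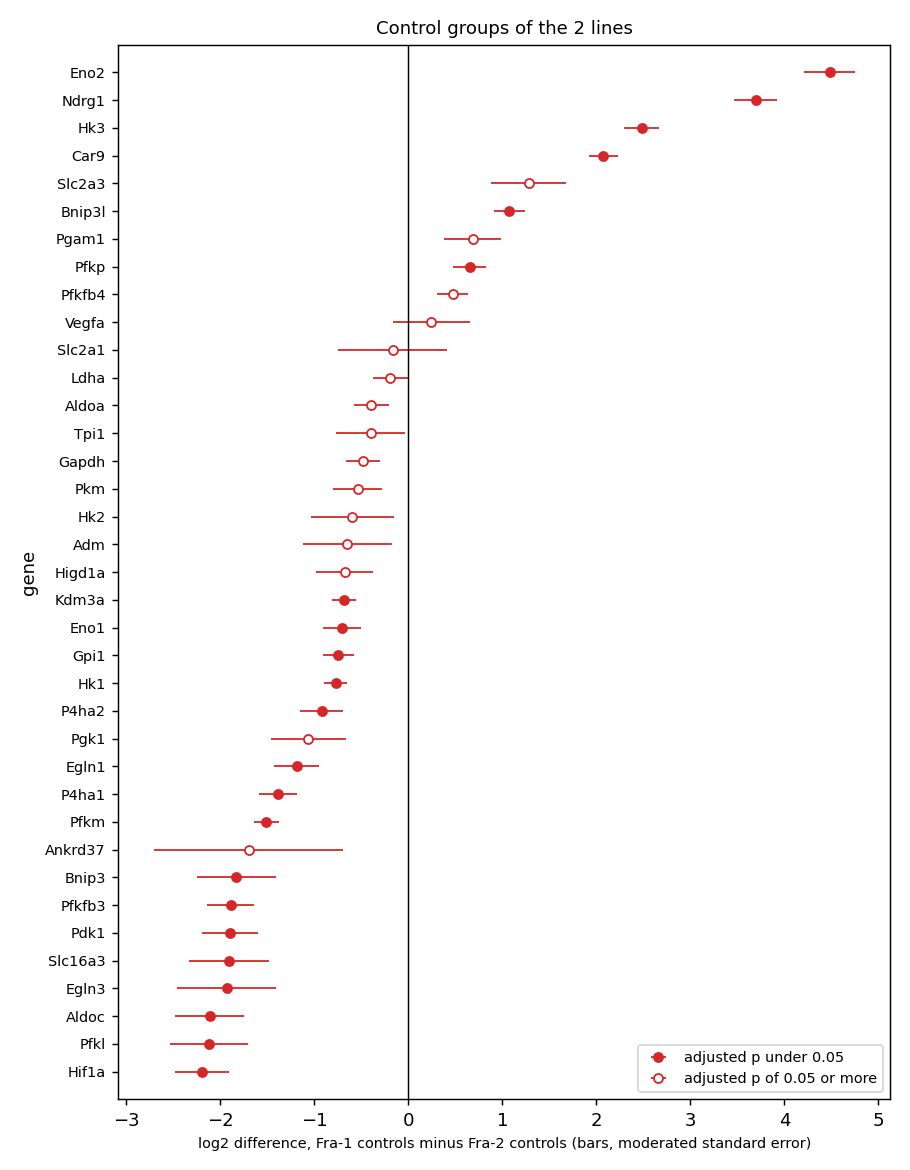
Log2 difference of Fra-1 controls minus Fra-2 controls for the 37 tested genes, with bars of 1 moderated standard error; filled points passed an adjusted p under 0.05 and open points did not. Eno2 (4.48) and Ndrg1 (3.69) stand at the top and Hif1a (−2.20) at the bottom.

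Markers of macrophages and of other cells also differed between the lines. The median log2 level of the 9 macrophage markers was 4.84 and 4.46 in Fra-1 controls and 6.84 and 7.02 in Fra-2 controls. Cd68 went the other way (9.18 and 8.96 against 7.21 and 7.06), and the arrays of Itgam overlapped. T cell markers summed to 1.91 to 2.26 in Fra-1 controls and 8.32 to 8.71 in Fra-2 controls. Fibroblast markers summed to 109 to 157 in Fra-1 controls and 1.38 to 3.24 in Fra-2 controls, where 3 or 4 of 7 were above background, and mesothelial markers to 10.3 to 15.1 and 0.738 to 0.804. B cell markers summed to 1.42 to 3.33 and 38.4 to 80.9, and mast cell markers to 2.18 to 2.62 and 43.7 to 135. Markers of large resident peritoneal macrophages summed to 98.6 to 99.8 and 158 to 276. Cd5l was the brightest of them in Fra-1 controls (6.43 and 6.44) and lower in Fra-2 controls (4.00 and 1.23). The other resident markers were higher in Fra-2 controls, and the median log2 level of the 7 was −0.40 and −0.46 in Fra-1 controls and 4.55 and 4.82 in Fra-2 controls. The part of all these cell markers in the differences between the lines was not tested.

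Related genes were followed on 5 lists. In the oxygen sensing list, 3 of 12 tested genes were called higher in Fra-1 controls and 0 lower. Of all features, 18.1% were called higher and 17.9% lower, and the counts of all 5 lists stand beside these shares. Epas1, which encodes HIF-2 alpha, read 6.39 and 6.27 in Fra-1 controls and 3.25 and 2.80 in Fra-2 controls (3.31, SE 0.18, adjusted p = 1.87e-04), so Hif1a and Epas1 were called in opposite directions between these groups. Hif3a and Arnt2 were also called higher but dim: Hif3a read −4.13 and −4.14 in Fra-1 controls (at least 1.37-fold higher) and Arnt2 −4.91 and −4.41, both below background in Fra-2 controls. Of 2 further genes, named after their values were seen, Vhl, which tags HIF for destruction, read 2.84 and 2.58 against 3.10 and 3.36, and Arnt, the partner of HIF alpha subunits, 2.68 and 2.32 against 2.57 and 2.77.

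Of 29 tested genes among other HIF targets, 7 were called higher and 9 lower in Fra-1 controls. The higher ones included Plod2, a lysyl hydroxylase (at least 7.24-fold, below background in Fra-2 controls), Plin2, a lipid droplet coat protein (3.20), Hilpda, another lipid droplet protein (2.61), and Anxa2 (2.53). The lower ones included Ppp1r3c, a glycogen-targeting subunit of protein phosphatase (at least 12.7-fold, below background in Fra-1 controls), glycogen synthase Gys1 (−2.67), the glycogen branching enzyme Gbe1 (−2.28) and Ddit4 (−2.26), an inhibitor of mTOR signalling.

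Among other isoforms of glycolysis and lactate handling, 1 of 14 tested genes was called higher (Tigar, 0.64) and 4 lower: the transporter Slc2a6 (−1.93), Ldhb (−1.23), Bsg (−0.63), the partner of lactate exporters, and Eno1b (−0.54), whose sequence is close to that of Eno1. For pyruvate entry into mitochondria and its use there, 2 of 12 were higher, the phosphatase Pdp1 (2.75) and the carrier Mpc1 (0.53). On the same list 4 were lower, the kinases Pdk3 (−1.70) and Pdk2 (−1.48), pyruvate carboxylase Pcx (−1.17) and Pdha1 (−0.62). In the pentose phosphate pathway 1 of 8 was called, Rpia (−1.11).

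None of the listed genes was called in either knockout comparison. Of the 2 genes with the smallest p in each list, those under an unadjusted p of 0.05 in Fra-1 knockouts were Mpc1 (0.66, adjusted p = 0.333), Tfrc (−0.78, adjusted p = 0.344), Ppp1r3c (0.53, below background in both groups), Slc2a6 (0.84, adjusted p = 0.430) and H6pd (−0.33, adjusted p = 0.558), the transferrin receptor Tfrc taking up iron and H6pd serving the pentose phosphate pathway of the endoplasmic reticulum. In Fra-2 knockouts they were Ppp1r3c (−0.46, adjusted p = 0.358), Slc2a6 (0.81, adjusted p = 0.412), Ldhb (0.48, adjusted p = 0.417) and Pgm2 (−0.50, adjusted p = 0.541). Slc2a6 read 4.04 and 4.19 against 4.79 and 5.12 in the Fra-1 line and 5.76 and 6.33 against 6.66 and 7.06 in the Fra-2 line. It was higher on both knockout arrays than on both controls in each line. List medians in the Fra-1 comparison lay between −0.04 and 0.07, below the 0.35 of the 37 genes, though no test of this difference was made.

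Other probes of the same genes were compared by sign. Of the 15 genes with more than 1 probe, all probes above the filter had 1 sign in 14 for the Fra-1 comparison, in 12 for the Fra-2 comparison and in 15 between the controls. The size could differ between probes. In the Fra-1 comparison the brightest Gapdh probe had 0.17 and its others 0.27 to 0.56, and Ldha had 0.22 against 0.44 and 0.46. The brightest Hk1 probe gave the larger value, 0.42 against 0.20. Between the controls Gapdh had −0.48, and −0.44 to −1.07 on its other probes. The 24 tested genes with ACGTG in a window had a median of 0.43 in the Fra-1 comparison with 23 positive, and the 10 without had 0.22 with 9 positive. Between the control groups the medians were −0.85 and −0.67, and in the Fra-2 comparison −0.22 and −0.16. These medians describe the groups and were not tested against each other.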

How the data were processed

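Each of the 8 arrays was hybridised with Cy3-labelled RNA of 1 sample. Per the file headers, the deposited scanner files hold the intensity of each spot, background-subtracted and processed by Agilent Feature Extraction 11.5.1.1 (protocol GE1_1105_Oct12, design on build mm9), and other columns hold deposited flags for outlier spots and for spots well above background. The deposited value table of the authors holds log2 values; set against the scanner values it matched the same scale, with the median of each probe over these arrays set to 0, and it served as an alternative.

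Outlier spots were left out, spots of a probe averaged and log2 of the array's 75th percentile subtracted. Probes measured on all 8 arrays and well above background on both arrays of some group were kept, and the brightest probe stood for its gene. Limma 3.58.1 (R 4.3.3; tables in Python 3.11.15) fitted group means on all 8 arrays, with Benjamini-Hochberg adjustment over 22910 features and calls at an adjusted p under 0.05. All members are accounted for by role; Fosl1 and Fosl2 are named, and of each other list up to 4 called genes with the largest difference in each direction or, where none was called, up to 2 with the smallest p. The members and lists were chosen with earlier results of these data known. Alternatives were quantile normalization, normexp background on median signals, the value table, no filter on dim probes, the mean of a gene's probes, the slide as a block or alone, only the groups compared, and leaving out each array. The test was checked on simulated data. Promoter letters come from RefSeq.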

Additional observations from a re-analysis of the deposited data

Results flagged for a closer look

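In 3 genes every knockout array lay on one side of the controls in the Fra-1 line and on the opposite side in the Fra-2 line, a share of 8.11% against 8.90% of all features. The difference of the effects, Fra-1 minus Fra-2, was 1.88 for Egln3, 0.94 for Car9 and 3.30 for Ankrd37 on the log2 scale. The limma test of this difference called none of them (adjusted p = 0.514, 0.297 and 0.542). Without Fra-1 control 1 the value of Ankrd37 was 1.63.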

How the results depend on the processing

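Under each alternative with a limma fit, none of the 37 genes was called in either knockout comparison or in the difference of the effects. Within a slide alone only differences were taken, with no test. The median of the Fra-1 comparison stayed positive, from 0.16 with the slide as a block to 0.46 without control 2. That of the Fra-2 comparison ran from −0.39 without knockout 2 to 0.07 without knockout 1, where its sign turned. The median of the difference of the effects ran from 0.20 without Fra-2 knockout 1 to 0.82 without Fra-2 knockout 2 when single arrays were left out. The count of genes called between the control groups ran from 13 to 26 when single arrays were left out, the lowest without Fra-2 control 2 and 14 without Fra-1 control 1, and was 18 with no filter on dim probes and 25 with both groups of each line. Where 1 array was left in a group, it was assumed to vary like the other groups. The median of all features moved by at most 0.06 under any scaling. No paired analysis was possible because the labels share no replicate numbers between groups, except through the slide, which held 1 control and 1 knockout each in the Fra-2 line. With the slide as a block the Fra-2 median was −0.18, and no gene was called. With 2 arrays in a group, differences of the size seen in the knockouts were not separable from the spread between arrays.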

Other observations

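With the controls and knockouts of each line pooled, 5 genes differed in their call from the comparison of the controls alone. Vegfa was called higher in the Fra-1 line (1.03, limma adjusted p = 0.0254), as were Slc2a3 (1.20, adjusted p = 0.0137), Pgam1 (1.01, adjusted p = 0.00968) and Pfkfb4 (0.42, adjusted p = 0.0274), while Egln3 lost its call (−0.99, adjusted p = 0.0640). Line, thioglycollate label and preparation cannot be told apart here either. The pooled groups also hold the knockouts, so the deleted gene and the Cre driver differ between them as well. In the controls alone Vegfa had 0.24 (limma adjusted p = 0.672), and its arrays overlapped.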
